A study of Mus musculus with 15 samples.

Results

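B cells and the chemokines that place lymphocytes in lymphoid tissue were followed through 8 genes: the chemokines Cxcl13, Ccl19 and Ccl21a, the chemokine receptors Cxcr5 and Ccr7, and the B cell markers Ms4a1, Cd79a and Cd79b. They were taken by symbol from the 55487 genes of the deposited count table, where 10 rows carry a member symbol; 2 of these, second copies of Ccl19 and Ccl21a on unplaced scaffolds, had 0 counts in every library, and the 8 rows on chromosomes were used. RNA-Seq had been done on conjunctival tissue of WT female mice of the strain that the labels spell BALC/c and the methods BALB/c. The mice were young adults by the age range in weeks that the methods give. All mice had been sensitized through the skin with MC903, a vitamin D analog, together with OVA. The PBS group was then challenged in the eye with PBS, with no antibody listed, and 2 groups were challenged in the eye with OVA, one given an isotype antibody (isotype group) and the other an antibody that blocks the IL-4 receptor alpha chain (anti-IL-4Ra group). Each group had 5 libraries, and library totals ran from 48622195 to 67453852 counts in the PBS group, from 48656967 to 87744970 in the isotype group and from 50432442 to 71637007 in the anti-IL-4Ra group. Since the PBS group lists no antibody, ocular OVA and the isotype antibody cannot be told apart in the comparison of the isotype group with it.

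In lymphoid organs, CXCL13 made by stromal cells draws cells that carry CXCR5, mainly B cells and follicular helper T cells, into follicles. CCL19 and CCL21 act on a shared receptor, CCR7, and guide T cells and migrating dendritic cells; lymphatic endothelium also makes CCL21, through which dendritic cells leave peripheral tissue. CD79a and CD79b are the signaling chains of the B cell receptor, and Ms4a1 encodes CD20, a surface protein of mature B cells.

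The tissue label was checked against markers. The conjunctival keratins Krt4 and Krt13 were at 982.8 and 958.1 CPM on average in the PBS group, at 851.6 and 945.7 CPM in the isotype group and at 737.6 and 760.4 CPM in the anti-IL-4Ra group, and Pax6, a transcription factor of the eye, was at 101.7, 81.9 and 110.1 CPM. CPM stands for counts per 1000000 counts of a TMM-normalized library. The summed level of lacrimal gland genes varied widely between libraries. The 10 genes of a lacrimal acinar list, Mucl2 the most abundant, summed to 604.3, 3944, 702.2, 7878 and 53009 CPM in PBS replicates 1 to 5, to 34096, 419.6, 7092, 27663 and 4831 CPM in the isotype replicates, and to 120603, 60614, 1758, 157287 and 149337 CPM in the anti-IL-4Ra replicates. Anti-IL-4Ra replicate 3 thus had the lowest lacrimal content of its group, and it also had the highest level of every member in its group; results are given with and without it where it matters.

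Levels between genes were compared per length, as FPKM (CPM per 1000 bases of exon). Ccl21a was the most abundant member at 93.7 ± 17.4 FPKM (SD, n = 15), followed by Cxcl13 at 4.04 ± 1.67 FPKM and Ccl19 at 3.75 ± 1.31 FPKM, which did not differ beyond their spread and whose order differed between groups: Ccl19 and Cxcl13 were at 4.28 and 4.22 FPKM with PBS, 3.51 and 2.40 FPKM with isotype antibody and 3.45 and 5.52 FPKM under blockade. Ccr7 was at 1.12 ± 0.609 FPKM, Cd79b at 0.912 ± 0.541 FPKM and Cd79a at 0.830 ± 0.533 FPKM, again within their spread of each other, though under blockade Ccr7, at 0.876 FPKM, was the lowest of these. The lowest were Ms4a1 at 0.0736 ± 0.0402 FPKM and Cxcr5 at 0.0730 ± 0.0411 FPKM. All 8 members reached 10 counts in 5 or more libraries and entered the test over 19006 genes.

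Promoter windows, of 300 bases from 250 before to 50 after the start (RefSeq, GRCm38.p6), were at hand for 4 members: Cxcl13, Ccl19, Ccl21a and Cd79a. Those of Cxcl13, the ligand whose level changed, and of Ccl21a, the most abundant ligand, are shown from 5′ to 3′ without the transcribed bases, at chr5:95956689-95956938 on the plus strand and chr4:42773994-42774241 on the minus strand.

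Cxcl13: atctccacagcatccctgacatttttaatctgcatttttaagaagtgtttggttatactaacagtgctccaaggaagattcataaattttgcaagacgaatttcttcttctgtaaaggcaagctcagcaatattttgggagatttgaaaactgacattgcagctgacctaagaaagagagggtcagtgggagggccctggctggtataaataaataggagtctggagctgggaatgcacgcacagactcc

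Ccl21a: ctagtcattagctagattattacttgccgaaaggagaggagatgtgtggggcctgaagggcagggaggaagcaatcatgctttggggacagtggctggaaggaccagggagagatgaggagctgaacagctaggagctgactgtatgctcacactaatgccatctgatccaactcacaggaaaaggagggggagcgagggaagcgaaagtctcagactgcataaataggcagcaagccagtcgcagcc

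Capitals would mark a motif, and there are none. The octamer of octamer-binding factors, the early B cell factor motif, the STAT6 motif and the NF-kB consensus were searched on both strands, and the 4 windows held 0 matches. Of all 32851 windows, 1.74% held the octamer, 0.904% the early B cell factor motif, 6.95% the STAT6 motif and 5.80% the NF-kB consensus. No match says only that these letters are not in these windows.

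**Figure D1:**
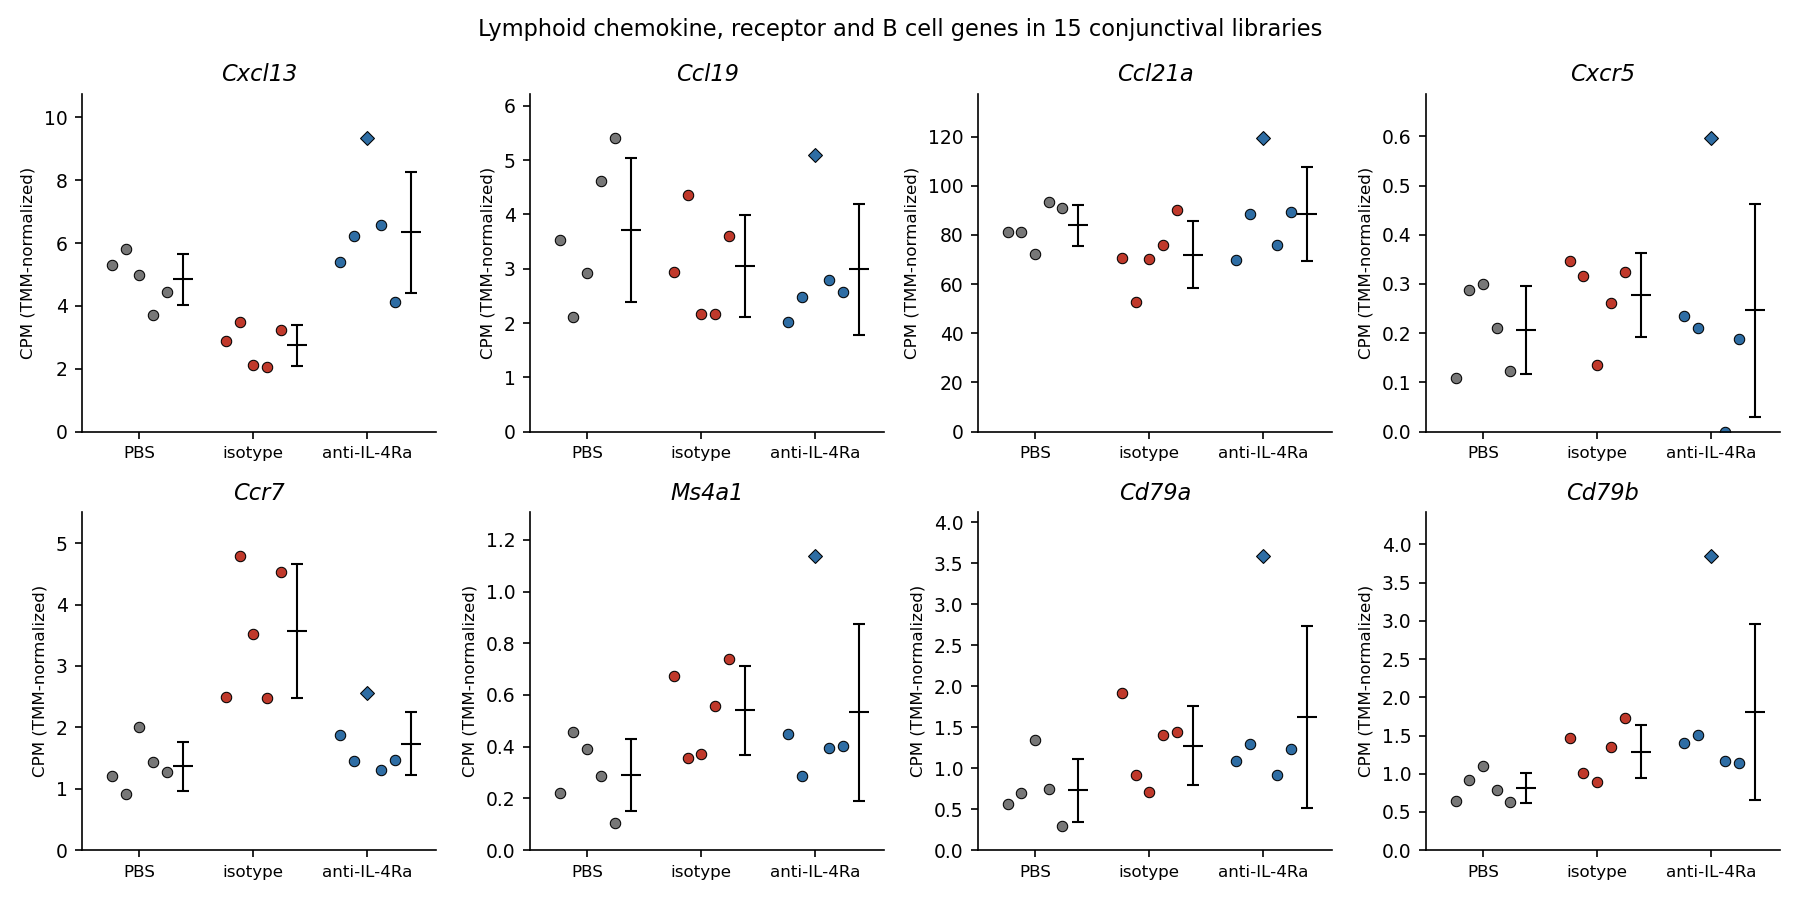
Level of each member (y axis, CPM of TMM-normalized libraries, from 0) in the 5 libraries of each group, ordered by replicate number, with the mean and SD at the right; the diamond is anti-IL-4Ra replicate 3. Every isotype library lies below every other library for Cxcl13, and above every PBS library for Ccr7.

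The first question was what ocular OVA challenge under isotype antibody did to these genes, against PBS. In edgeR's quasi-likelihood test over all genes, 2 of the 8 members were called at an adjusted p under 0.05, in opposite directions: Cxcl13 fell and Ccr7 rose. Over all 19006 genes 17.0% were called (3235), of which 1812 were higher and 1423 lower; with upper quartile factors in place of TMM the split was 1479 higher and 1844 lower, and in a linear model on log2(FPKM + 1) 1332 and 1704. The number called fell to 2018 without PBS replicate 2, 2098 without PBS replicate 5, 2040 without isotype replicate 2 and 1863 without isotype replicate 3, and 3 members were called without anti-IL-4Ra replicate 3, the added member being Cd79b. In the members the groups did not overlap for 2 of 8, against 12.3% of all genes tested. The median log2 fold change was 0.545 over the members and -0.0119 over all genes tested. The 3 comparisons below share libraries, so they are not independent of each other.

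Cxcl13 (ENSMUSG00000023078, chromosome 5, 95956951 to 95961068, GRCm38) was at 5.29, 5.82, 4.99, 3.71 and 4.43 CPM in PBS replicates 1 to 5, at 2.88, 3.48, 2.12, 2.04 and 3.25 CPM in the isotype replicates, and at 5.41, 6.24, 9.36, 6.57 and 4.13 CPM in the anti-IL-4Ra replicates. All 5 isotype libraries lay below all 10 others, and the PBS and anti-IL-4Ra libraries overlapped. From PBS to isotype the mean went from 4.85 ± 0.812 to 2.75 ± 0.650 CPM (SD, n = 5), a log2 fold change of -0.81 (SE 0.21, edgeR adjusted p = 0.0198; exact two-sided permutation p = 0.00794, the least possible with these group sizes). The adjusted p ranged from 0.0110 to 0.0536 with 1 library left out, passing 0.05 without PBS replicate 2 (0.0505, log2 fold change -0.74) and without isotype replicate 3 (0.0536, log2 fold change -0.73), and from 0.00249 to 0.769 over the other 14 settings. It was 0.271 with a leukocyte score as a covariate, with the log2 fold change at -1.10, and 0.769 with that score and without anti-IL-4Ra replicate 3, with the log2 fold change of Cxcl13 at -0.76. In bulk tissue, fewer cells that express a gene and less RNA of it per cell cannot be told apart.

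Ccr7 (ENSMUSG00000037944, chromosome 11, 99144196 to 99155077) was at 1.21, 0.916, 1.999, 1.43 and 1.26 CPM in PBS replicates 1 to 5, at 2.49, 4.79, 3.52, 2.48 and 4.53 CPM in the isotype replicates, and at 1.88, 1.45, 2.56, 1.31 and 1.46 CPM in the anti-IL-4Ra replicates. Every isotype library was above every PBS library, while anti-IL-4Ra replicate 3 reached the range of the lowest isotype libraries. From PBS to isotype Ccr7 rose from 1.36 ± 0.401 to 3.56 ± 1.09 CPM (SD, n = 5), a log2 fold change of 1.39 (SE 0.26, edgeR adjusted p = 0.00433; exact two-sided permutation p = 0.00794). It was called in all 15 fits with 1 library left out (adjusted p 0.00212 to 0.0141 in edgeR) and in 12 of the other 14 settings (5.49e-06 to 0.770); with the leukocyte score as a covariate the log2 fold change was 0.57 (edgeR, adjusted p = 0.475), and with that score and without anti-IL-4Ra replicate 3 it was 0.65 (edgeR, adjusted p = 0.770).

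Leukocyte markers moved with this comparison. All 5 genes of a list of leukocytes in general (Ptprc, Cd53, Cd52, Coro1a and Laptm5) were higher in the isotype group, with a median log2 fold change of 1.05. Their summed level, to which Laptm5 gave most, was 141.8, 117.4, 135.2, 138.6 and 142.2 CPM in PBS replicates 1 to 5 and 172.7, 256.3, 321.8, 237.4 and 399.0 CPM in the isotype replicates, so that no isotype library reached down to a PBS library. It was 182.6, 208.4, 290.0, 151.8 and 195.9 CPM in the anti-IL-4Ra replicates. With the score of this list as a covariate only 4 genes of 19006 were called for isotype against PBS, while anti-IL-4Ra against PBS gave 1393. The score of every isotype library (-0.275 to 1.96) was above that of every PBS library (-1.41 to -0.753). The part of leukocyte content in the levels of Ccr7 and Cxcl13 was not tested beyond these fits.

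**Figure D2:**
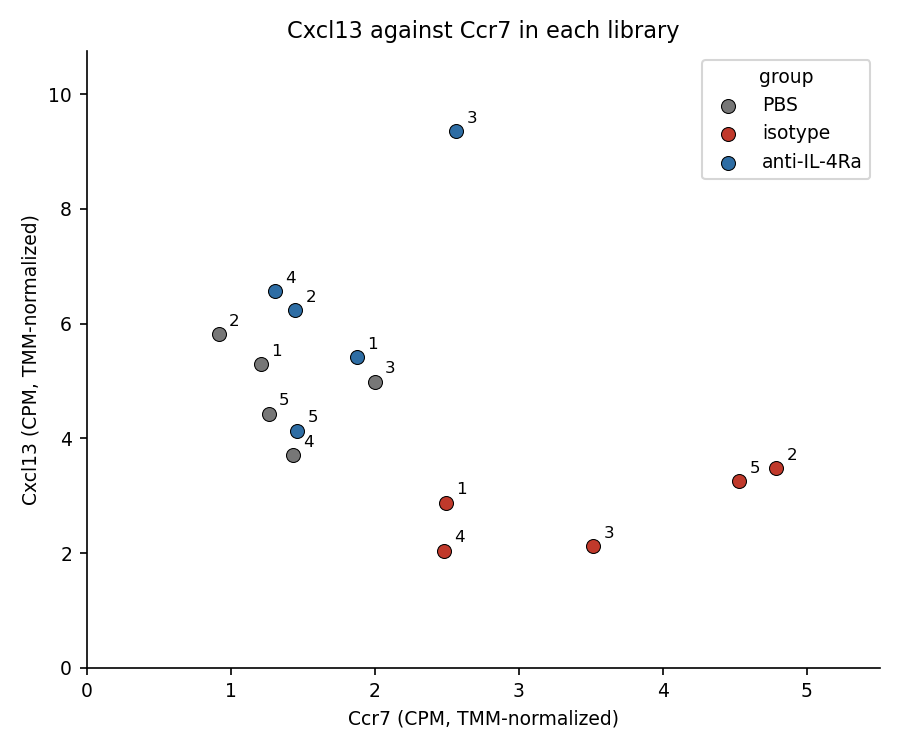
Cxcl13 (y axis) against Ccr7 (x axis), both in CPM of TMM-normalized libraries, for each of the 15 libraries with its replicate number. The isotype libraries lie apart at 2.04 to 3.48 CPM of Cxcl13 and 2.48 to 4.79 CPM of Ccr7.

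The second question was what IL-4Ra blockade changed under OVA challenge, against the isotype antibody. Again 2 of 8 members were called, Cxcl13 higher and Ccr7 lower, where 14.9% of all genes were called (2826; 1280 higher and 1546 lower). The split was 168 higher and 509 lower in a fit of the 2 groups only, 59 and 277 with the lacrimal score, 32 and 236 with the leukocyte score, and 9 and 46 with that score and without anti-IL-4Ra replicate 3. The number called was 1124, 882 and 1418 without isotype replicate 2, 3 or 5, and 1060, 1436, 1164 and 1446 without anti-IL-4Ra replicate 1, 2, 4 or 5. Groups did not overlap for 1 member, Cxcl13, against 7.31% of all genes. The median log2 fold change was 0.158 over the members and 0.00913 over all genes tested.

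Cxcl13 rose from 2.75 ± 0.650 to 6.34 ± 1.93 CPM (SD, n = 5), a log2 fold change of 1.20 (SE 0.21, edgeR adjusted p = 0.00537; exact two-sided permutation p = 0.00794). Without anti-IL-4Ra replicate 3, the library with most Cxcl13, the log2 fold change was 1.02 (edgeR, adjusted p = 0.00403), and it was called in all 15 fits with 1 library left out. Over the other 14 settings the adjusted p ran from 3.58e-06 to 0.0925 and 13 called it; the exception, at 0.0925, was the fit with the leukocyte score and without anti-IL-4Ra replicate 3, which was chosen after seeing the data.

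Ccr7 fell from 3.56 ± 1.09 to 1.73 ± 0.511 CPM (SD, n = 5), a log2 fold change of -1.04 (SE 0.25, edgeR adjusted p = 0.0206; exact two-sided permutation p = 0.0238). The groups overlapped through anti-IL-4Ra replicate 3, and without it the log2 fold change was -1.23 (edgeR, adjusted p = 0.00600). The call was lost without isotype replicate 2 (log2 fold change -0.90, edgeR adjusted p = 0.0544), without anti-IL-4Ra replicate 4 (-0.95, 0.0541) and in a fit of the 2 groups only (-1.04, 0.0524). It was also lost, with a smaller fold, with a lacrimal score as a covariate (-0.74, edgeR adjusted p = 0.131), with the leukocyte score (-0.71, 0.116) and with the leukocyte score and without anti-IL-4Ra replicate 3 (-0.79, 0.156). Its adjusted p ran from 0.00600 to 0.0544 with 1 library left out and from 0.00153 to 0.156 over the other settings. Of the 10 lacrimal genes 1 was called here, Aqp5, a water channel of secretory cells, at a log2 fold change of 0.48 (SE 0.15, edgeR adjusted p = 0.0444), and their median was 2.55. The call of Aqp5 held in 3 of 15 fits with 1 library left out, those without isotype replicate 1, anti-IL-4Ra replicate 2 or anti-IL-4Ra replicate 3. Over all 15 fits the log2 fold change of Aqp5 ran from 0.41 to 0.59 (edgeR adjusted p 0.0180 to 0.108).

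Against PBS, 0 of 8 members were called in the anti-IL-4Ra group by edgeR, where 3.72% of all genes were called (707; 434 higher and 273 lower). The split was 354 higher and 336 lower with upper quartile factors and turned to 174 higher and 337 lower in a linear model on log2(FPKM + 1). It was 42 higher and 40 lower without PBS replicate 1, 37 and 45 without PBS replicate 2, 122 and 143 without PBS replicate 3, and 65 and 70 without PBS replicate 4. The number called was 2029 without anti-IL-4Ra replicate 3, 122, 229, 276 and 124 without anti-IL-4Ra replicate 1, 2, 4 or 5, 82, 82, 265 and 135 without PBS replicate 1, 2, 3 or 4, and 462 and 457 without isotype replicate 3 or 4. At an unadjusted p under 0.05 in edgeR there were 2 members, Cd79a and Cd79b, where 4396 of all 19006 genes reached that level. DESeq2 called 1 member, Cd79b, and a linear model on log2(CPM + 1) called 0. The median log2 fold change was 0.370 over the members and -0.00434 over all genes tested. Cxcl13 was at a log2 fold change of 0.39 (SE 0.21, edgeR adjusted p = 0.279) and Ccr7 at 0.35 (SE 0.26, edgeR adjusted p = 0.445). Groups did not overlap for 1 member, Cd79b, against 6.10% of all genes.

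**Figure D3:**
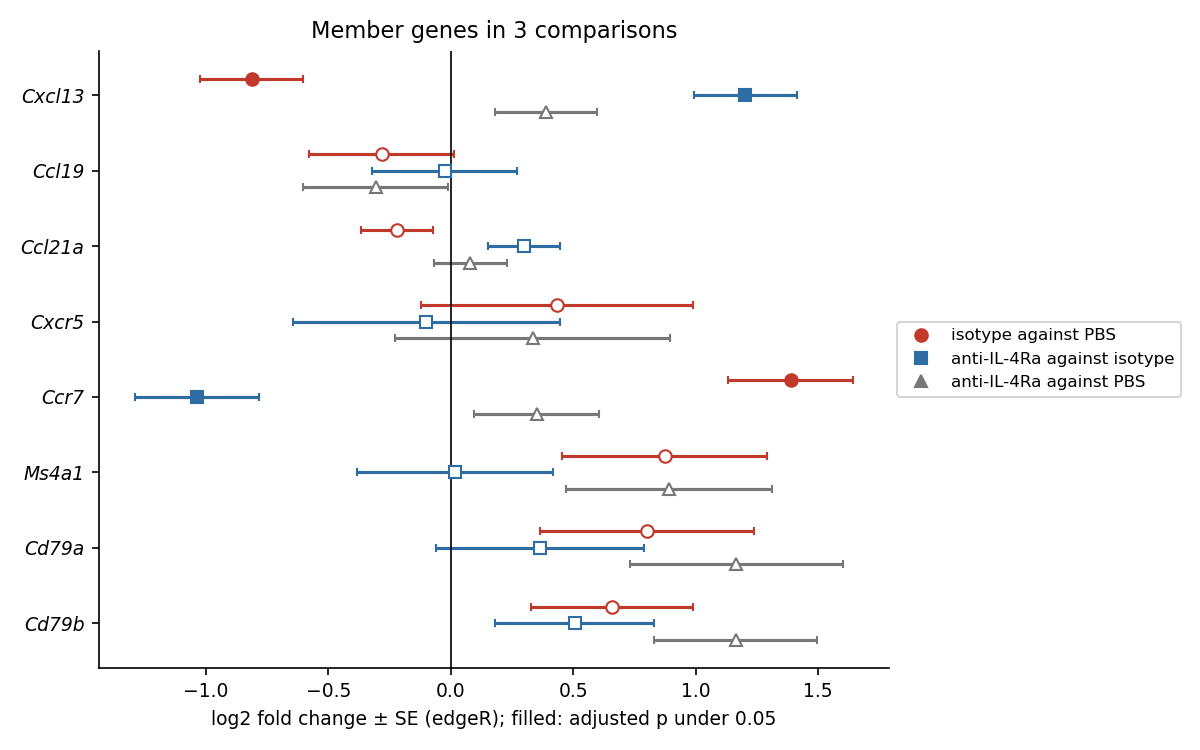
Log2 fold change (x axis) with its SE for each member (y axis) in 3 comparisons, from edgeR; filled symbols have an adjusted p under 0.05. Only Cxcl13 and Ccr7 have filled symbols, -0.81 and 1.39 for isotype against PBS and 1.20 and -1.04 for anti-IL-4Ra against isotype.

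The ligands of CCR7 gave no call. Ccl21a (ENSMUSG00000094686, chromosome 4, 42772860 to 42773993) was at 81.3, 81.3, 72.3, 93.4 and 91.0 CPM in PBS replicates 1 to 5, at 70.8, 52.8, 70.4, 76.0 and 90.3 CPM in the isotype replicates and at 69.8, 88.5, 119.6, 75.9 and 89.3 CPM in the anti-IL-4Ra replicates. The groups overlapped throughout; the log2 fold change was -0.22 (SE 0.15, edgeR adjusted p = 0.323) in isotype versus PBS and 0.30 (SE 0.15, edgeR adjusted p = 0.172) for anti-IL-4Ra against isotype. Ccl19 (ENSMUSG00000071005, chromosome 4, 42754525 to 42756577) was at 3.52, 2.10, 2.92, 4.61 and 5.41 CPM in the PBS, at 2.94, 4.35, 2.17, 2.17 and 3.59 CPM in the isotype and at 2.02, 2.47, 5.08, 2.79 and 2.58 CPM in the anti-IL-4Ra replicates. Its log2 fold changes in these comparisons were -0.28 (SE 0.30) and -0.02 (SE 0.30), with adjusted p = 0.545 and 0.962 in edgeR. Values of Ccl19 were not whole in 15 libraries and those of Ccl21a in 10, and both genes have near-identical copies and overlap 4930578G10Rik on the other strand, so their counts are uncertain. The 12 other rows with the name of a copy held 32 counts in all over the 15 libraries, and 8 of them held 0; of 16 symbols on the list of copies 7 had a row on a chromosome and 0 reached the test.

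Cxcr5 (ENSMUSG00000047880, chromosome 9, 44511787 to 44561877), the receptor of CXCL13, had 0 to 41 counts per library, and its CPM lay between 0.110 and 0.301 with PBS, between 0.135 and 0.347 with isotype antibody and between 0 and 0.597 under blockade, so that all groups overlapped. Replicate 4 of the last group had 0 counts, which allows up to 0.0741 CPM (3 counts), and replicate 3 had 41; such limits cover counting error only. The log2 fold change was 0.43 (SE 0.55, edgeR adjusted p = 0.627) in isotype versus PBS and -0.10 (SE 0.55, edgeR adjusted p = 0.914) for anti-IL-4Ra against isotype. The latter was -0.75 without anti-IL-4Ra replicate 3 (edgeR, adjusted p = 0.310) and turned to 0.18 without replicate 4. Cxcr5 overlaps Bcl9l on the other strand.

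The B cell markers had few counts. Cd79b (ENSMUSG00000040592, chromosome 11, 106311341 to 106314762) was at 0.646, 0.916, 1.10, 0.784 and 0.633 CPM in PBS replicates 1 to 5, at 1.47, 1.003, 0.892, 1.34 and 1.73 CPM in the isotype replicates and at 1.41, 1.51, 3.85, 1.16 and 1.13 CPM in the anti-IL-4Ra replicates. Every anti-IL-4Ra library was above every PBS library, while the isotype libraries overlapped both groups. Against PBS, the log2 fold change was 0.66 (SE 0.33, edgeR adjusted p = 0.186) in the isotype group and 1.16 (SE 0.33, edgeR adjusted p = 0.0638; exact two-sided permutation p = 0.00794) in the anti-IL-4Ra group. Without anti-IL-4Ra replicate 3 these were 0.66 (edgeR, adjusted p = 0.0431) and 0.68 (edgeR, adjusted p = 0.0642), and DESeq2 gave adjusted p = 0.0120 for the latter with all libraries. In the isotype group the adjusted p of Cd79b ran from 0.0431 to 0.984 over all settings, and in the anti-IL-4Ra group from 0.0120 to 0.341.

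Cd79a (ENSMUSG00000003379, chromosome 7, 24897381 to 24902197) was at 0.564, 0.696, 1.34, 0.746 and 0.299 CPM in the PBS, at 1.92, 0.911, 0.707, 1.40 and 1.44 CPM in the isotype and at 1.09, 1.30, 3.58, 0.914 and 1.23 CPM in the anti-IL-4Ra replicates. Ms4a1 (ENSMUSG00000024673, chromosome 19, 11249675 to 11266241) had 16, 27, 22, 15 and 6 counts in the PBS, 33, 35, 22, 32 and 41 counts in the isotype and 21, 19, 78, 16 and 17 counts in the anti-IL-4Ra replicates, with group means of 0.292, 0.540 and 0.533 CPM. The groups overlapped for both genes, and anti-IL-4Ra replicate 3 was the highest of all 15 libraries. For isotype against PBS the log2 fold changes were 0.80 (SE 0.44, edgeR adjusted p = 0.219) for Cd79a and 0.87 (SE 0.42, edgeR adjusted p = 0.163) for Ms4a1. For anti-IL-4Ra against isotype they were 0.37 (SE 0.42, edgeR adjusted p = 0.568) and 0.02 (SE 0.40, edgeR adjusted p = 0.984), and without anti-IL-4Ra replicate 3 they turned to -0.16 (adjusted p = 0.771 in edgeR) and -0.49 (adjusted p = 0.321 in edgeR). Ms4a1 overlaps 4930526L06Rik on the other strand.

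Set against leukocyte content, the summed counts of Ms4a1, Cd79a and Cd79b per 100 counts of Ptprc, the gene of the leukocyte antigen CD45, were 6.19, 11.8, 13.5, 7.99 and 4.83 in PBS replicates 1 to 5, 14.6, 5.28, 4.08, 8.49 and 6.41 in the isotype replicates and 10.2, 8.50, 18.0, 11.7 and 8.85 in the anti-IL-4Ra replicates. These ratios overlapped between all 3 groups and are given as a description with no test.

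**Figure D4:**
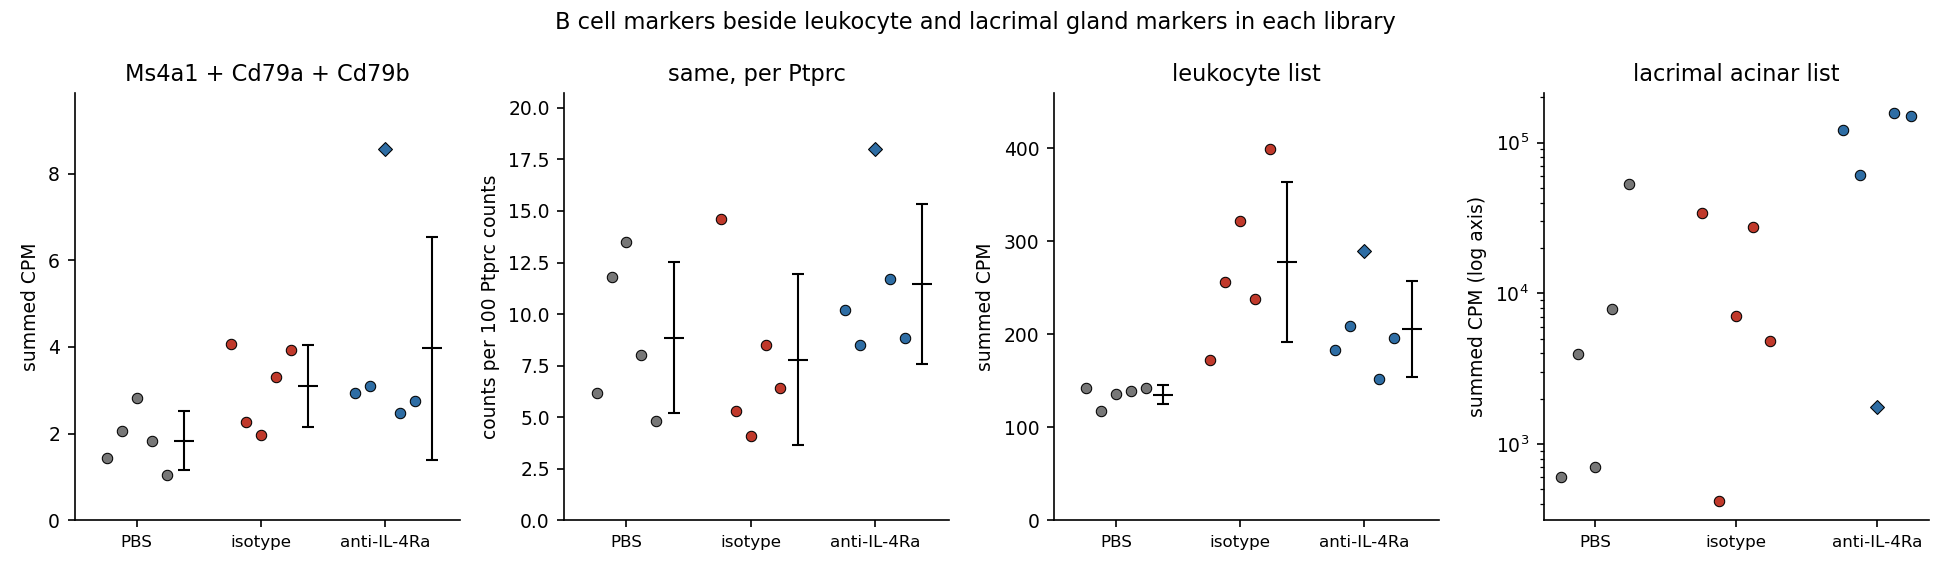
Summed CPM of Ms4a1, Cd79a and Cd79b, their counts per 100 Ptprc counts, and summed CPM of the leukocyte and lacrimal acinar lists (the last on a log axis) by library, with mean and SD in the first 3 panels; the diamond is anti-IL-4Ra replicate 3. That library has the highest B cell marker level, 8.57 CPM, and the lowest lacrimal level of its group, 1758 CPM.

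Of 23 tested genes of a list of B cell identity and B cell receptor signaling, 7 were higher, 1 lower and 15 not called for isotype against PBS. Their median log2 fold change was 0.284. Beside the counts of this list and those below, edgeR called 17.0% of all genes for isotype against PBS. It called 14.9% for anti-IL-4Ra against isotype and 3.72% for anti-IL-4Ra against PBS. An unadjusted p under 0.05 was reached in edgeR by 6188, 6245 and 4396 of all 19006 genes in these comparisons. The lower gene of the list, Blk, went from 1.89 ± 0.353 to 1.09 ± 0.349 CPM (log2 fold change -0.80, SE 0.25, edgeR adjusted p = 0.0444). Spib, a transcription factor of B cells and plasmacytoid dendritic cells, rose from 1.14 ± 0.223 to 5.11 ± 2.36 CPM (log2 fold change 2.16, SE 0.39, edgeR adjusted p = 0.00399). Cd22, an inhibitory coreceptor, rose from 0.602 ± 0.323 to 2.54 ± 1.09 CPM (log2 fold change 2.07, SE 0.42, edgeR adjusted p = 0.00694), and Fcrla rose by 1.997 on the log2 scale (SE 0.34, edgeR adjusted p = 0.00305). Under blockade 1 gene of the list was higher and 1 lower against isotype, the latter Cd22 at -1.31 (SE 0.41, edgeR adjusted p = 0.0451). That call of Cd22 held in 5 of 15 fits with 1 library left out. It was lost without PBS replicate 1, 2 or 4, isotype replicate 2, 3 or 5, or anti-IL-4Ra replicate 1, 2, 4 or 5. Over all 15 fits the log2 fold change of Cd22 ran from -1.57 to -1.12 (edgeR adjusted p 0.0203 to 0.113). For anti-IL-4Ra against PBS 3 were higher and 0 lower, with Spib at 1.999 (SE 0.39, edgeR adjusted p = 0.0231), a call lost without PBS replicate 1 or 2 or anti-IL-4Ra replicate 1 (1.57 to 2.18 over the 15 fits, adjusted p 0.00950 to 0.0689). Pou2af1, a coactivator of octamer factors in B lineage cells, was higher than PBS in both OVA groups, by 1.59 (SE 0.46, edgeR adjusted p = 0.0306) and 2.38 (SE 0.46, edgeR adjusted p = 0.0231). The former call was lost without PBS replicate 2, 3, 4 or 5 or isotype replicate 5 (log2 fold changes of Pou2af1 from 1.26 to 1.77 over the 15 fits), the latter without PBS replicate 1, 2 or 4 (1.83 to 2.57).

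Plasma cell genes gave 3 of 12 higher and 0 lower in the isotype group against PBS, 3 higher and 1 lower for anti-IL-4Ra against isotype, and 5 higher and 0 lower for anti-IL-4Ra against PBS. Jchain, which joins polymeric immunoglobulins, was at 2.72, 1.49, 2.12, 0.860 and 0.844 CPM in PBS replicates 1 to 5, at 16.6, 8.68, 9.05, 32.6 and 60.5 CPM in the isotype replicates and at 24.9, 47.3, 185.4, 18.3 and 42.2 CPM in the anti-IL-4Ra replicates. All OVA-challenged libraries were above all PBS libraries, with log2 fold changes of 3.97 (SE 0.76, edgeR adjusted p = 0.00540) and 5.29 (SE 0.80, edgeR adjusted p = 0.00928) against PBS. Without isotype replicate 5 the former was 3.36 (edgeR, adjusted p = 0.0136), and without anti-IL-4Ra replicate 3 the latter, of Jchain, was 4.35 (edgeR, adjusted p = 0.00181). Mzb1, a chaperone of immunoglobulin assembly, rose by 2.65 (SE 0.58, edgeR adjusted p = 0.00982) and 3.51 (SE 0.59, edgeR adjusted p = 0.0148) on the log2 scale, and Tnfrsf13b, the receptor TACI, by 1.14 in the isotype group (SE 0.22, edgeR adjusted p = 0.00599). The 2.65 of Mzb1 was 1.95 without isotype replicate 5 (edgeR, adjusted p = 0.0218). Txndc5, of protein folding in secretory cells, rose by 0.48 under blockade against isotype (SE 0.15, edgeR adjusted p = 0.0473). The call was kept in 2 of 15 fits with 1 library left out, those without PBS replicate 5 and without anti-IL-4Ra replicate 3. Over all 15 fits the log2 fold change of Txndc5 ran from 0.40 to 0.60 (edgeR adjusted p 0.00471 to 0.116). Over anti-IL-4Ra replicates 1 to 5 Txndc5 was at 268.9, 214.7, 160.5, 300.8 and 288.8 CPM, in the same order as the summed lacrimal level of these libraries given above. Xbp1, which like Txndc5 serves secretory cells of other kinds too and was named after its values were seen, was at 345.1, 261.3, 177.5, 433.2 and 418.7 CPM in them, again in that order. The full order did not match in the other groups. Txndc5 was at 184.7, 196.8, 164.7, 177.5 and 163.0 CPM in isotype replicates 1 to 5, highest in replicate 2, which had the lowest summed lacrimal level. In PBS replicates 1 to 5 Txndc5 was at 130.2, 140.0, 135.1, 136.7 and 186.9 CPM. There it was highest in replicate 5 and lowest in replicate 1, which had the highest and the lowest summed lacrimal level of that group. Xbp1 was at 231.4, 144.1, 164.0, 196.8 and 176.1 CPM in the isotype and at 162.3, 158.2, 155.1, 164.3 and 263.9 CPM in the PBS replicates, in both groups highest in the library with the highest summed lacrimal level. The part of lacrimal content in the plasma cell list under blockade was not tested.

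Of 11 tested germinal center and follicular helper T cell genes, 4 were higher for isotype against PBS: Il21r by 1.46 (SE 0.26), Icos by 1.32 (SE 0.28), Cd40 by 1.16 (SE 0.21) and Gcsam by 1.01 (SE 0.26) on the log2 scale, with adjusted p = 0.00381, 0.00885, 0.00428 and 0.0205 in edgeR. The call of Gcsam was lost without isotype replicate 3 (0.93) or 5 (0.85). For anti-IL-4Ra against isotype 0 were called by edgeR, 0 by DESeq2 and 0 by the linear model, with 3 at an unadjusted p under 0.05.

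Among 21 genes of lymphoid organization and the homeostatic chemokine network, 5 were higher and 1 lower for isotype against PBS, and 2 higher and 3 lower for anti-IL-4Ra against isotype. The receptors Cxcr4 and Gpr183 rose by 0.92 (SE 0.22, edgeR adjusted p = 0.0133) and 0.76 (SE 0.21, edgeR adjusted p = 0.0272), the latter lost without PBS replicate 2 or 3 or isotype replicate 3 or 5 (Gpr183 from 0.57 to 0.88 over the 15 fits with 1 library left out). Il7, a survival factor of lymphocytes, had the same 2 directions as Cxcl13: it was at -0.54 for isotype against PBS (SE 0.15, edgeR adjusted p = 0.0230) and at 0.49 for anti-IL-4Ra against isotype (SE 0.15, edgeR adjusted p = 0.0389). The first of these calls of Il7 was lost without PBS replicate 1, 4 or 5 or isotype replicate 2, 3 or 5. Over the 15 fits that fold change ran from -0.63 to -0.46 (edgeR adjusted p 0.0140 to 0.0594). The second call was lost without PBS replicate 4, isotype replicate 2, 3 or 5 or any 1 anti-IL-4Ra replicate. Its fold change ran from 0.43 to 0.55 over the 15 fits (edgeR adjusted p 0.0320 to 0.0908).

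Of 6 tested genes of high endothelial venules, the vessels through which lymphocytes enter lymph nodes, 2 were higher for isotype against PBS, and 1 was lower for anti-IL-4Ra against isotype. Chst4, a sulfotransferase of these vessels, had 6 counts summed over the PBS group, 144 over the isotype group and 20 over the anti-IL-4Ra group. The isotype to PBS ratio was 22.4 (95% exact counting interval 10.04 to 62.0) and the isotype to anti-IL-4Ra ratio 5.98 (3.73 to 10.1). These intervals cover counting error only and leave out the spread between libraries. Without PBS replicate 3 the former ratio was 36.3, and without anti-IL-4Ra replicate 3, which held 11 of the 20 counts of Chst4, the latter was 9.85. Its adjusted p was 0.000912 and 0.00763 in edgeR. Gcnt1, a glycosyltransferase, rose by 1.30 on the log2 scale (SE 0.19, edgeR adjusted p = 0.00149). Madcam1, of the same list, was at 0.768, 0.737 and 0.744 CPM in the PBS, isotype and anti-IL-4Ra groups. Its log2 fold change was -0.08 for isotype against PBS (SE 0.42, edgeR adjusted p = 0.920). Glycam1, which did not reach the test, was at 0.289 ± 0.310, 0.104 ± 0.117 and 0.0758 ± 0.0719 CPM in these groups.

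Of 8 lymphatic endothelial genes, 1 was lower for isotype against PBS, Sema3d at -0.61 (SE 0.12, edgeR adjusted p = 0.00694), and 1 higher for anti-IL-4Ra against isotype, Reln at 0.66 (SE 0.14, edgeR adjusted p = 0.0144). These counts are not above the shares of all genes called, 17.0% and 14.9%. The defining markers were present, Lyve1 at 16.5, 15.7 and 15.4 CPM and Prox1 at 2.21, 1.83 and 2.31 CPM in the PBS, isotype and anti-IL-4Ra groups. Of 12 dendritic cell genes 4 were higher for isotype against PBS and 4 lower for anti-IL-4Ra against isotype. Il4i1 was at 1.73 (SE 0.28, edgeR adjusted p = 0.00230) and -1.08 (SE 0.27, edgeR adjusted p = 0.0237) in these comparisons. The latter call was lost without isotype replicate 3 or 5 or anti-IL-4Ra replicate 1, 2, 4 or 5. Over the 15 fits with 1 library left out it ran from -1.30 to -0.83 (edgeR adjusted p 0.00609 to 0.0605). Fscn1, an actin bundler of mature dendritic cells, which carry CCR7, was at 0.999 (SE 0.16, edgeR adjusted p = 0.00192) and -0.81 (SE 0.16, edgeR adjusted p = 0.00862). Flt3 rose by 1.32 (SE 0.26, edgeR adjusted p = 0.00663) and Cd80 by 0.90 (SE 0.18, edgeR adjusted p = 0.00615) in the isotype group.

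Among 13 T cell genes 7 were higher for isotype against PBS, Cd4 by 1.70 (SE 0.32, edgeR adjusted p = 0.00506), Cd8a by 1.56 (SE 0.24, edgeR adjusted p = 0.00176), Cd8b1 by 1.497 (SE 0.39, edgeR adjusted p = 0.0208, and 0.0513 without PBS replicate 5) and Cd2 by 1.45 (SE 0.24, edgeR adjusted p = 0.00228); the defining marker Cd3e was at 2.61, 3.06 and 3.11 CPM in the 3 groups. For anti-IL-4Ra against isotype 0 T cell genes were called by edgeR, with 1 at an unadjusted p under 0.05, 1 by DESeq2 and 1 by the linear model, and 0 of the 5 leukocyte genes, with 2 at an unadjusted p under 0.05, 1 by DESeq2 and 0 by the linear model. For anti-IL-4Ra against PBS 2 T cell genes were higher and 0 lower, Cd4 at 1.495 (SE 0.32, edgeR adjusted p = 0.0304) and Cd2 at 1.13 (SE 0.23, edgeR adjusted p = 0.0277). The call of Cd4 was lost without PBS replicate 1, 2, 3 or 4 or anti-IL-4Ra replicate 1, 2 or 5 (1.23 to 1.66 over the 15 fits, adjusted p 0.0169 to 0.0824), and that of Cd2 without PBS replicate 1, 2 or 4 or anti-IL-4Ra replicate 5 (0.91 to 1.22, adjusted p 0.0144 to 0.0749). In the same comparison 1 of the 11 germinal center and follicular helper T cell genes and 1 of the 21 lymphoid organization genes were higher, and 1 of the 12 dendritic cell genes was lower. In the isotype group Cd53, Laptm5, Ptprc and Coro1a rose by 1.28, 1.12, 1.05 and 0.89 on the log2 scale.

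Markers of neighbouring tissue moved as well, and their part in the members' results was not tested beyond the lacrimal covariate. Of 8 skeletal muscle genes, Myh4 the most abundant, 7 were lower for isotype against PBS, among them Actn3 at -0.89, Ckm at -0.82, Tnnt3 at -0.74 and Mylpf at -0.71, with that of Actn3 lost without PBS replicate 2 (-0.77) or 5 (-0.80). Against isotype 0 were called by edgeR under blockade, with 1 at an unadjusted p under 0.05, 1 by DESeq2 and 0 by the linear model. Of 9 ocular surface genes, Krt14 was higher for isotype against PBS at 0.55 (SE 0.11, edgeR adjusted p = 0.00694), and for anti-IL-4Ra against isotype Krt14 was at -0.75, Pax6 at 0.43 and the corneal keratin Krt12 at 3.55. Krt12 was at 47.2, 1.21, 6.35, 3.11 and 3.87 CPM in anti-IL-4Ra replicates 1 to 5, and without replicate 1 its log2 fold change was 1.79 (edgeR, adjusted p = 0.101). The call of Krt12 was also lost without isotype replicate 2, 3 or 5. That of Pax6 was lost without PBS replicate 2 or 4, isotype replicate 2, 3 or 5 or anti-IL-4Ra replicate 1, 2, 4 or 5. Over the 15 fits with 1 library left out Pax6 was at 0.33 to 0.50. Of 8 meibomian gland genes, Scd1 and Far2 the most abundant at 7438 and 1093 CPM in the PBS group, edgeR called 0 for isotype over PBS and 0 for anti-IL-4Ra against isotype, with 1 and 2 at an unadjusted p under 0.05 and 0 by DESeq2 or the linear model. Of 10 lacrimal genes edgeR called 0 for isotype against PBS, with 0 at an unadjusted p under 0.05 and 0 by DESeq2 or the linear model.

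Il4ra, the target of the antibody, was at 64.1 ± 13.3 CPM in the PBS group, 107 ± 33.4 CPM in the isotype group and 51.4 ± 14.8 CPM in the anti-IL-4Ra group, with log2 fold changes of 0.74 for isotype against PBS (SE 0.22, edgeR adjusted p = 0.0342, lost without PBS replicate 1, 2, 4 or 5 or isotype replicate 2, 3 or 5, at 0.54 to 0.86 and adjusted p 0.0186 to 0.0851 over the 15 fits) and -1.06 for anti-IL-4Ra against isotype (SE 0.22, edgeR adjusted p = 0.0119).

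The genes whose log2 CPM was most like that of a member over the 15 libraries are given as a description. For Cxcl13 they were Ism1 (Pearson r 0.816), Dnajc21 (0.792), Serping1 (0.774), Ptbp2 (0.773) and Zfp606 (0.768). For Ccl21a they were Nr3c1 (0.844), Mmrn1 (0.843), AC141882.2 (0.834), Syne1 (0.831) and Flt4 (0.830), of which Mmrn1 and Flt4 are on the lymphatic endothelial list. For Ccl19 they were Tfpt (0.768), Dhx33 (0.760), Guca1a (0.760), Adam23 (0.751) and Zfyve16 (0.746). For the mean of Ms4a1, Cd79a and Cd79b they were Pou2af1 (0.852), Lax1 (0.833), Slpi (0.832), Jchain (0.812) and Igkc (0.807), of which Pou2af1, Jchain and Igkc are known from B lineage cells. Anti-IL-4Ra replicate 3 was the highest library for Ms4a1, Cd79a and Cd79b. It was also the highest for Pou2af1, at 6.105 CPM with the next library at 2.889 CPM, and for Jchain, at 185.4 CPM with the next at 60.52 CPM. The correlations were not computed without that library. All points share the 3 groups and the library composition described above.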

How the data were processed

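The authors deposited estimated counts per gene for 15 conjunctival libraries, per the methods mapped uniquely in Omicsoft Array Studio (B38 mouse genome, Ensembl genes). The methods also mention outliers, 2 in total, without naming libraries, and all 15 libraries were kept here. The use of strand in counting is not given in the sources used here. The values were not scaled for depth and were rounded to whole numbers. Symbols, positions and exon lengths came from GENCODE M21 (GRCm38), which matched 55227 of 55487 genes; 0 columns of values were without a sample. The 19006 genes that reached 10 counts in 5 or more libraries were fitted in edgeR 4.0.16 (TMM factors, quasi-likelihood, 1 model with 3 groups, two-sided, Benjamini-Hochberg over all genes tested, called under 0.05) in R 4.3.3. SE came from the log2 fold change and its F statistic; log2 CPM used a prior count of 2. Single genes were compared by exact permutation over 252 splits. The test was also run on simulated data. Libraries are separate samples per the labels, each with its own mouse name in its title. The labels say no more on the animals, so p-values measure the spread between these samples.

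Members and lists were chosen with earlier results of these data known. All members are named, and from each list up to 4 genes called in isotype against PBS or anti-IL-4Ra against isotype, by the largest absolute log2 fold change in the former, or else the 2 of highest mean CPM; for likeness, the 5 genes of highest Pearson r with a mean CPM of at least 1. Some genes this rule would name are not reported here. Cd3e, Xbp1, Lyve1, Prox1, Krt4, Krt13, Blk, Madcam1 and Glycam1 were named as defining markers or after their values were seen. Alternatives were upper quartile factors, DESeq2 size factors, DESeq2 1.42.0, limma 3.58.1 on log2(CPM + 1), log2(CPM + 0.1) and log2(FPKM + 1), robust estimation, no filter, filterByExpr, a fit of the groups compared, a replicate block, lacrimal and leukocyte scores as covariates, and each library left out; the leukocyte score without anti-IL-4Ra replicate 3 was added after seeing the data.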

Additional observations from a re-analysis of the deposited data

Results flagged for a closer look

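There were 27 groups of 5 values (8 members and the library total in 3 groups). In 5 of them the gap from the highest library to the next was over 0.71 of the group's range. About 1 in 20 is the rate for independent, normally distributed values. In the anti-IL-4Ra group the flagged values were those of replicate 3 for Cd79b at 3.847 CPM, Cd79a at 3.585 CPM, Ms4a1 at 1.137 CPM and Ccl19 at 5.085 CPM. These flags share 1 library, so they are not independent and their number is not set against that rate. The library also had the lowest summed lacrimal level and the highest summed leukocyte level of its group; their part in these values was not tested. In the isotype group it was the library total of replicate 2, at 87744970 counts.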

How the results depend on the processing

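Over 24 log2 fold changes (8 members in 3 comparisons), 343 of 360 fits with 1 library left out and 307 of 336 other fits kept direction and side of the threshold; 4 and 9 lost a call, 1 and 1 gained one, and 12 and 19 changed sign, all of uncalled genes. The cause was not tested.

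Members called for isotype against PBS were 2, or 1 to 3 with 1 library left out, and 0 with the leukocyte score, also without anti-IL-4Ra replicate 3. For anti-IL-4Ra against isotype they were 2, or 1 to 2 with 1 library left out, 1 in the fit of 2 groups, 1 with the lacrimal score, 1 with the leukocyte score and 0 with that score and without anti-IL-4Ra replicate 3. Against PBS they were 0, and 1 with DESeq2.

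Genes called for isotype against PBS were 3235, 4 with the leukocyte score, 3 with it and without anti-IL-4Ra replicate 3, and 1863 to 3936 with 1 library left out. For anti-IL-4Ra against isotype they were 2826, 1749 with no filter, 677 in the fit of 2 groups, 336 with the lacrimal score, 268 with the leukocyte score, 55 with it and without replicate 3, and 882 to 4206 with 1 library left out. For anti-IL-4Ra against PBS they were 707, 1966 with DESeq2, 409 and 366 with linear models on log2(CPM + 1) and log2(CPM + 0.1), 327 with no filter, 88 with the lacrimal score, 1393 with the leukocyte score, 1411 with it and without replicate 3, and 82 to 2029 with 1 library left out.

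With the replicate number as a block, 2115, 1859 and 312 genes were called in these comparisons, and no member's call changed; Ms4a1 turned to -0.13 for anti-IL-4Ra against isotype. Deviations from the group means correlated at -0.385 to 0.454 between same-numbered libraries of different groups. These values were not compared with those of differently numbered libraries, so they do not decide whether the numbers pair the samples.

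Sign changes for isotype against PBS were, with the leukocyte score, Cxcr5 at -0.37 and Cd79b at -0.042. For anti-IL-4Ra against isotype, Cxcr5 was at 0.19 with the lacrimal and 0.077 with the leukocyte score and -0.75 to 0.18 with 1 library left out, and Ccl19 at 0.15, 0.20 and -0.31 to 0.14. Ms4a1 was at -0.024, -0.10 and -0.0026 in linear models on log2(CPM + 1), log2(CPM + 0.1) and log2(FPKM + 1), at -0.66 with the leukocyte score and without anti-IL-4Ra replicate 3, and at -0.49 to 0.19 with 1 library left out; Cd79a was at -0.34 with that score and without that library, and at -0.16 to 0.56 with 1 library left out. For anti-IL-4Ra against PBS, Cxcr5 was at -0.022 with log2(CPM + 0.1), at -0.29 with the leukocyte score, at -0.27 with it and without replicate 3, and at -0.32 to 0.62 with 1 library left out; Ccl21a was at -0.18, -0.17 and -0.052 to 0.15, and Ccr7 at -0.15 and -0.14 with the score, and with it and without replicate 3.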
